A study of Mus musculus with 54 samples.

Results

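The conjugation enzymes described here were the soluble glutathione S-transferases (Gst), the UDP-glycosyltransferases (Ugt) and the cytosolic sulfotransferases (Sult) of the mouse kidney. Members were all listed genes whose symbol starts with Gst and a class letter (a, k, m, o, p, t or z), with Ugt or with Sult, followed by a digit, and whose symbol carries no pseudogene suffix. This gave 56 of the 33126 genes listed in the series, with 21 Gst, 20 Ugt and 15 Sult members. Of these, 25 were listed in every library, 41 in at least 1 library of cells or nuclei, 15 in bulk libraries only and 1, *Sult2a2*, in libraries of cells or nuclei only.

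The study compared ways to dissociate, store and profile adult mouse kidney in 54 libraries, 3 per condition in 18 conditions. Male C57BL/6J mice of 19 weeks, from the AFAPIL.1DEL line, gave cold- and warm-dissociated suspensions that were profiled fresh, after cryopreservation or after methanol fixation with 10x chemistry v2, and as bulk RNA-seq with rRNA depletion. Male Balb/c mice of 18 weeks gave cold-dissociated fresh cells and nuclei sorted after 3 washes at 500g (3x500g), both with chemistry v2, and bulk RNA-seq of intact kidney with rRNA depletion. Female Balb/c mice of 15 weeks, earlier used as breeders, gave cold-dissociated cells (fresh or cryopreserved), 3x500g nuclei, nuclei sorted after 1 wash at 2000g (1x2000g) and nuclei from a sucrose gradient, all with chemistry v3, and bulk RNA-seq with poly(A) selection of intact kidney and of cold-dissociated suspension. No treatment was compared, and the study describes the triplicates as biological. The 10x libraries held 983522 to 35170947 UMIs (unique molecular identifiers, which count captured transcripts) and the bulk libraries 2326998 to 31093949 reads. Of 175959 barcodes, 89124 (50.7%) fell in clusters named proximal tubule (PT), whose 11 PT markers summed to 13637 to 26993 CPM (counts per 1000000) per library, outside the C57BL/6J cryopreserved libraries, which held at most 8 such barcodes each, and no pair of libraries shared more than 101 barcodes, or more than 2.05% of the smaller library. The study dropped, in each library, the genes seen in fewer than 10 cells, and the files of most 10x libraries list such genes at 0 (up to 6658 genes in a library). A gene listed at 0 in a library of cells or nuclei was thus not shown to be absent, and up to 9 cells that held it may have been left out.

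Conjugation makes foreign and endogenous compounds more water-soluble. Gst enzymes join glutathione to electrophiles such as lipid peroxidation products, Ugt enzymes transfer a sugar, mostly glucuronic acid, from a UDP-sugar, and Sult enzymes transfer sulfate from the donor PAPS. The proximal tubule is a main site of these reactions in the kidney, where it also takes up, secretes and breaks down the conjugates. It runs from the convoluted segment S1 to the straight segment S3.

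Promoters of 3 members held the core of the antioxidant response element, the site of Nrf2, a regulator known for its control of Gst genes. Of the 56 members, 49 matched a promoter in the RefSeq set of GRCm38.p6 (60 promoters of 250 bases before to 50 after a start). The core, TGACNNNGC on either strand, was present in 3 of these 60 promoters (5%) and in 4071 of all 32851 promoters (12.4%). The palindromic site of HNF1, a factor of tubule genes, was searched in the same way and was present in 3 of all promoters and in none of the members'. The promoters of *Gsta3* (chr1:21240335-21240634, plus strand), *Gstm5* (chr3:107895604-107895903, plus strand) and *Gstm7* (chr3:107931565-107931864, minus strand) are printed 5′ to 3′, since these are the members that held the core, with the core in capitals. A match of letters is a description and not a site of binding.
Gsta3: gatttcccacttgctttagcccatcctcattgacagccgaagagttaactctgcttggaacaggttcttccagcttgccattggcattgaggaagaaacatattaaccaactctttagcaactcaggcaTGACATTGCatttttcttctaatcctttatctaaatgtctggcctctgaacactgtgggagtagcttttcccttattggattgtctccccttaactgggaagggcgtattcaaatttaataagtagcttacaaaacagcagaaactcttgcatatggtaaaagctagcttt
Gstm5: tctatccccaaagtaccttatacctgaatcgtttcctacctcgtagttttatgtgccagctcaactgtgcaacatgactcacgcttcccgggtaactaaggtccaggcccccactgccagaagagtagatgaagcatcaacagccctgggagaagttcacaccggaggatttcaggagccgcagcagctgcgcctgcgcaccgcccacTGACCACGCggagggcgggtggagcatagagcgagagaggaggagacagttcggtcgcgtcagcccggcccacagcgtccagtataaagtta
Gstm7: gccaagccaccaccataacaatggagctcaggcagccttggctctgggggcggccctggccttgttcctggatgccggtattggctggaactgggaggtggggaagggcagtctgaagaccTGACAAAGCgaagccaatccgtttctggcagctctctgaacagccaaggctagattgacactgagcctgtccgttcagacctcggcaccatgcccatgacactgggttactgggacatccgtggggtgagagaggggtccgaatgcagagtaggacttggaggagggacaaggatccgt

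The *Gsta* genes lie on chromosomes 1 and 9, the *Gstm* genes side by side on chromosome 3, the *Gstt* genes on chromosome 10, *Ugt3a1* and *Ugt3a2* next to each other on chromosome 15 and the *Ugt2b* genes on chromosome 5 (GENCODE annotation of GRCm38). Reads of close relatives are hard to tell apart, which limits some members. Of the 50-base words in the transcript of *Gsta1* (chr9:78230656-78242684), 90.5% also occur in other genes, mostly *Gsta2* (chr9:78331018-78355788) and loci with provisional names, against 49.8% for *Gsta2*. In the last 500 bases, the end that 10x libraries read, these shares were 91.7% for *Gsta1* and 64.8% for *Gsta2*, and 37.7% for *Gstp1*, 23.0% for *Gstm1* and 17.2% for *Gstt3*. The *Ugt1a* genes use different first exons and the same last exons, and 50.3 to 82.7% of their exon bases were shared. *Ugt2b38*, *Ugt2b37* and *Ugt2b5* shared 37.4%, 18.3% and 41.7% of such words over the whole transcript, but 3.10% at most in the last 500 bases. Levels of *Gsta1*, *Gsta2*, *Gstp1*, *Gstp2*, *Gstm1*, *Gstt3*, the *Ugt1a* genes and *Sult2a* genes are therefore uncertain, as are those of *Gstm5*, *Gstz1*, *Sult1a1*, *Sult2b1* and *Sult6b1*, whose exons overlap another gene, as do those of *Gstt3*.

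In PT barcodes, the 3 families took different shares of the UMIs in the 5 groups of fresh cells and 3x500g nuclei. Levels are CPM of the UMIs summed over the PT barcodes of a library, without mitochondrial genes, and were not divided by gene length. The Gst members together made up 2994 CPM on average in C57BL/6J male cold fresh cells, 1589 in Balb/c male cells, 5125 in Balb/c female cells, 1590 in male nuclei and 1138 in female nuclei. The Ugt members summed to 1618, 2591, 585, 1401 and 576 CPM in the same order, and the Sult members to 1145, 1247, 1246, 338 and 371 CPM. Gst levels were thus highest and Ugt levels lowest among cells in the female mice, and Sult levels were similar in all cells and lower in nuclei.

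**Figure D1:**
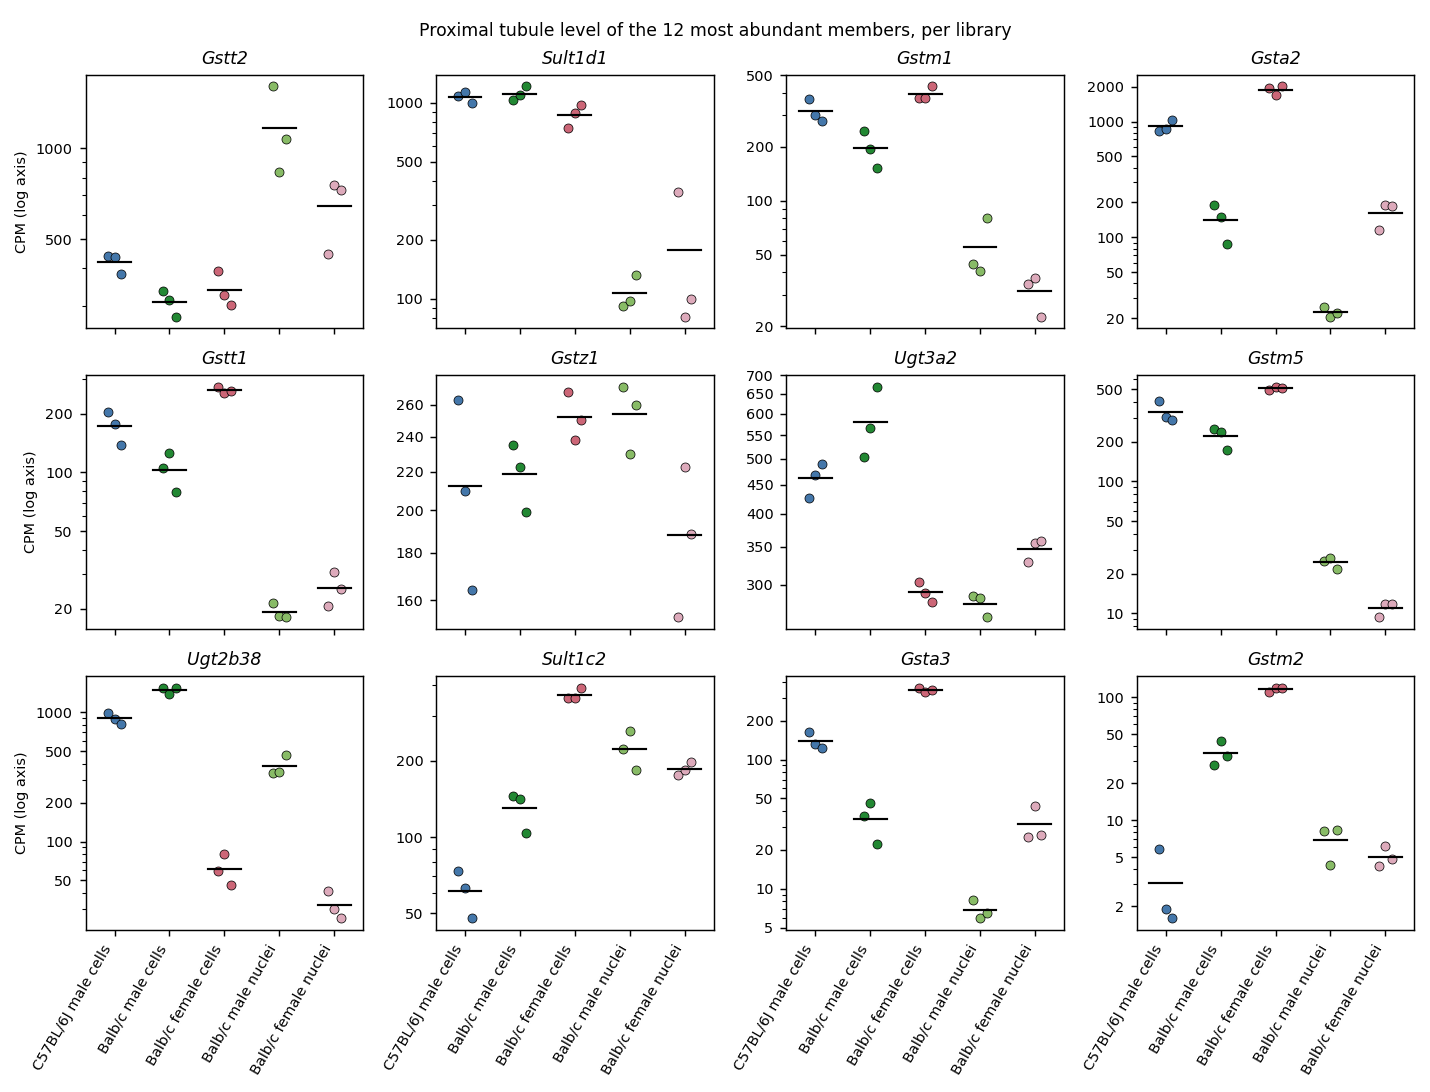
CPM of 12 members (log axis) in proximal tubule sums of fresh cells and 3x500g nuclei, 1 panel per member, with 1 point per library and a line at the mean of 3 libraries. *Ugt2b38* sat between 814.6 and 1556 CPM in male cells and between 45.7 and 79.8 CPM in female cells, and *Gsta2* was highest in female cells (1680 to 2025 CPM).

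The 12 members with the highest average log2 level over the 13 conditions of 10x libraries were *Gstt2*, *Sult1d1*, *Gstm1*, *Gsta2*, *Gstt1*, *Gstz1*, *Ugt3a2*, *Gstm5*, *Ugt2b38*, *Sult1c2*, *Gsta3* and *Gstm2*. *Sult1d1*, a sulfotransferase of catecholamines and other phenols, was among the more even of them across cells, with means of 1076, 1117 and 870 CPM in C57BL/6J male, Balb/c male and Balb/c female PT cells. *Gstt2*, a theta-class transferase, had means of 419, 309 and 340 CPM in these cells but 1170 ± 396 (SD, n = 3) in male and 644 ± 171 CPM in female nuclei. *Gstz1*, which isomerizes maleylacetoacetate in the breakdown of tyrosine, stayed between 153 and 272 CPM in each library of these groups from Balb/c mice. At the other end, the members listed in bulk libraries only, such as *Gstm3*, *Gstt4*, *Sult1c1* and *Sult4a1*, did not exceed 1 CPM in any bulk library apart from *Ugt1a5* (4.78 CPM) and *Ugt1a6b* (9.27 CPM).

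Members were not confined to the proximal tubule. Counting members that reached 10 CPM in some class of cells, 11 of 27 were highest in PT in C57BL/6J cells, 10 of 27 in Balb/c male cells, 17 of 30 in female cells, 6 of 26 in male nuclei and 9 of 23 in female nuclei. With the immune classes left out these were 11 of 27, 11 of 26, 17 of 30, 10 of 24 and 10 of 23. The floor of 10 CPM lies below the levels of some abundant PT transcripts in immune cells, so part of these counts may rest on free RNA. The classes are clusters of barcodes named by marker genes, and members took no part in the clustering, so these levels are a description without a test. *Gstm2*, a mu-class transferase, was highest in collecting duct principal cells, at 813 ± 37.7 CPM in C57BL/6J, 748 ± 225 in Balb/c male and 802 ± 27.7 in Balb/c female cells (SD, n = 3), and reached only 3.11, 34.9 and 116 CPM in PT of the same groups. *Gstt1*, another theta-class transferase, was likewise highest in principal cells, at 657, 603 and 657 CPM, followed by connecting tubule at 361, 324 and 389 CPM, and the libraries of these classes did not overlap.

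*Gstm1* led in thin limb barcodes of all cells, at 4640 CPM (1348 to 8379, 106 barcodes) in C57BL/6J, 1340 CPM (831 to 2227, 206 barcodes) in Balb/c male and 764 CPM (585 to 995, 129 barcodes) in Balb/c female libraries. The C57BL/6J libraries spread widely, and the class was small. *Gsta4*, which acts on the lipid peroxidation product 4-hydroxynonenal, was the leading member of podocytes in all 3 groups of cells, at 407 ± 137, 671 ± 73.3 and 698 ± 56.1 CPM (SD, n = 3). In female cells the podocyte libraries lay above those of PT (257 to 386 CPM). *Sult1a1*, a phenol sulfotransferase, was highest in endothelial barcodes of C57BL/6J cells (69.4 CPM), female cells (80.5 CPM) and female nuclei (71.6 CPM), though in C57BL/6J its libraries overlapped those of distal convoluted tubule. In Balb/c male cells *Sult1a1* was highest in macrophages (45.6 CPM) and in male nuclei in fibroblasts (38.7 CPM), each overlapping the next class. *Sult1d1* led in thick ascending limb of all cells, at 328, 345 and 289 CPM, well below its PT level.

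**Figure D2:**
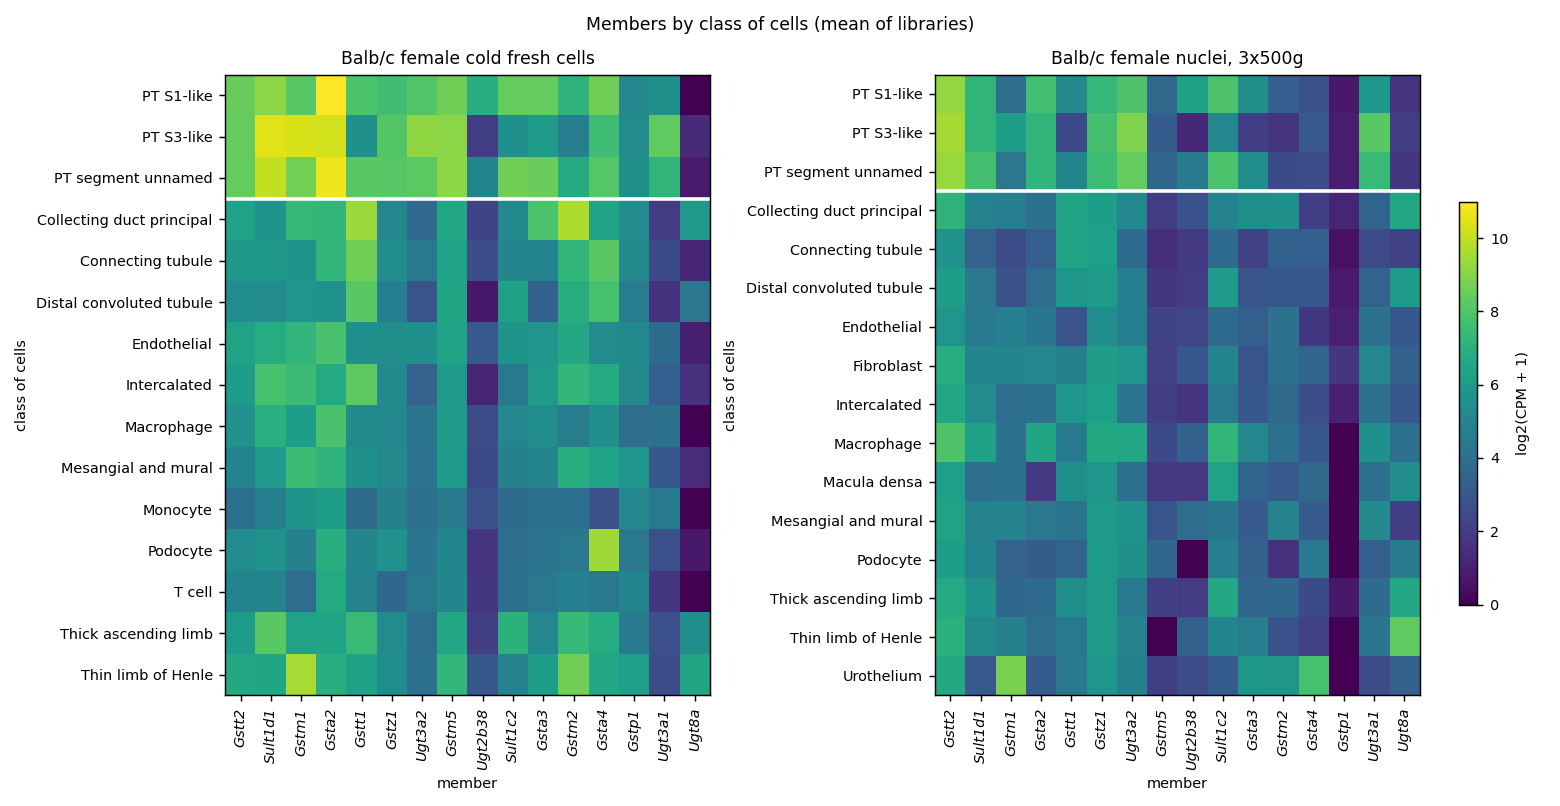
Heat map of log2(CPM + 1) for 16 members (columns) in each class (rows) of Balb/c female cold fresh cells and 3x500g nuclei. CPM was averaged over the libraries with at least 10 barcodes of the class. Among cells *Gstm2* and *Gstt1* peak in collecting duct principal cells and *Gsta4* in podocytes, among nuclei *Gstm2* and *Gsta4* peak in urothelium and *Ugt8a* in thin limb (314 CPM), and *Gstt2* is seen in every class of nuclei.

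In nuclei other classes came forward. *Gstt2* held the most UMIs of all members in 11 of 12 classes of male nuclei and 9 of 14 classes of female nuclei. *Ugt8a*, the galactosyltransferase that makes galactosylceramide, led in thin limb of female nuclei at 314 ± 36.9 CPM, and *Gstm1* led in 127 urothelial barcodes at 439 CPM (264 to 656). Abundant PT transcripts were also counted in immune cells, such as *Gsta2* at 105 CPM in T cells and 226 CPM in macrophages of female cells against 1881 CPM in PT, and *Ugt2b38* at 139 CPM in C57BL/6J B cells against 901 CPM in PT. Free RNA in droplets can give such counts, which was not tested, and low levels outside PT were not read as expression. In male nuclei *Gstm7*, *Sult1c2*, *Ugt1a7c*, *Ugt2b37*, *Ugt2b5* and *Ugt3a2* were highest in macrophages.

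Within the proximal tubule, members differed between segments, compared as the log2 difference of CPM + 1 between S3-like and S1-like barcodes of the same library. S3 was higher in all 5 groups for *Gstm1*, with means from 1.29 to 2.14, for *Ugt3a1*, which transfers N-acetylglucosamine, with 0.87 to 2.79, and for *Ugt3a2*, which uses UDP-glucose and UDP-xylose, with 0.36 to 1.18. In female cells, for example, *Ugt3a1* stood at 317 CPM in S3 and 45.3 CPM in S1. S1 was higher in all 5 groups for *Gsta2* (−0.46 to −3.48), *Gstt1* (−0.60 to −2.76), *Sult1c2* (−0.72 to −3.02) and *Ugt2b34* (−1.81 to −7.02). In female cells *Ugt2b34* had 1022 UMIs in S1 and 0 in S3, while in male Balb/c cells and nuclei 1 library each listed the gene at 0 and so entered with no difference. *Gstt2* did not separate the segments of cells, at 0.00 ± 0.21, −0.04 ± 0.08 and −0.01 ± 0.49 (SD, n = 3) in the C57BL/6J male, Balb/c male and Balb/c female groups.

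*Ugt2b38*, of the Ugt2b class that acts on steroids and bile acids, changed side between groups. It was higher in S3 in C57BL/6J (0.36 ± 0.07) and Balb/c male cells (1.21 ± 0.20), where it stood at 2441 CPM in S3 and 1057 CPM in S1, and higher in S1 in female cells (−5.80 ± 1.64), female nuclei (−5.06 ± 0.35) and male nuclei (−2.26 ± 0.68). *Ugt2b37* showed the same turn in male mice, with 3.24 ± 0.51 and 1.61 ± 0.71 in the C57BL/6J and Balb/c cells and −0.95 ± 0.33 in nuclei. *Sult1d1* was higher in S3 in female cells (1452 against 548 CPM, 1.40 ± 0.16) but about even in Balb/c male cells (0.05 ± 0.10). The segments were split by 8 S1 and 10 S3 markers, 1 of which was not listed in Balb/c mice. In female cells only 250 of 9455 PT barcodes were S3-like, against 1296 of 4887 in Balb/c male and 983 of 7530 in C57BL/6J cells.

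Male and female Balb/c mice were compared next, in PT cells, in PT nuclei and in bulk intact kidney. The sexes also differed in age, recorded use as breeders, chemistry or library kit, and batch, which cannot be told apart from sex. Each comparison was a quasi-likelihood test of edgeR on 3 against 3 libraries, with Benjamini-Hochberg adjustment over all genes tested, and genes with an adjusted p under 0.05 were called. Here and below, counts of calls under other settings are mostly given without the members tested or the share of all genes called. Such settings were other tests or filters, other barcodes, or a library left out. These counts show how calls moved and not how members stand against other genes. In PT cells 26 members were tested, of which 7 were higher and 16 lower in male mice, where 40.6% of all 10137 genes tested were called (18.2% higher and 22.4% lower). The median log2 fold change of the members was −1.18 and that of all genes −0.07. Restricted to genes above 0 in each of the 6 libraries, 7 of 21 members were higher and 12 lower (median −0.92), where 43.2% of all genes were called. By family, in the first count, 1 of 16 Gst members was higher and 12 were lower, 5 of 7 Ugt members were higher and 2 lower, and 1 of 3 Sult members was higher and 2 lower.

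Among Ugt members, *Ugt8a* stood at 173, 169 and 195 CPM in the male and 0.463, 0.268 and 0.799 CPM in the female libraries. The log2 fold change was 8.58 ± 0.20 (SE, adjusted p = 6.27e-14, edgeR). *Ugt2b38* had 1551, 1390 and 1556 CPM in male and 59.4, 79.8 and 45.7 CPM in female cells. Both genes were thus far higher in every male library, with 4.65 ± 0.18 for *Ugt2b38* (adjusted p = 1.29e-11, edgeR). *Ugt2b37* had 138, 145 and 91.0 CPM against 2.16, 1.43 and 2.88 CPM, and rose by 6.04 ± 0.24 (adjusted p = 2.05e-11, edgeR). *Ugt3a2* differed less, with 504, 565 and 669 CPM against 304, 290 and 279 CPM (1.06 ± 0.11). The Ugt members that went the other way were *Ugt2b34*, at 13.4, 15.1 and 0 CPM against 79.4, 76.2 and 71.4 CPM, and *Ugt1a7c*, which was listed at 0 in male cells. With each library listed at 0 given 9 UMIs, 1 for each of the 9 cells that may have been left out, the difference of *Ugt2b34* was −2.37 and that of *Ugt1a7c* 0.30, so that the call of *Ugt1a7c* rests on those zeros.

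Among Gst members the alpha class was lower in male than in female Balb/c mice. *Gsta2* had 189, 150 and 87.0 CPM in male and 1938, 1680 and 2025 CPM in female PT cells, and fell by 3.63 ± 0.20 on the log2 scale (adjusted p = 1.11e-09, edgeR). *Gsta4* had 6.09, 5.75 and 6.59 CPM against 257, 295 and 386 CPM (−5.60 ± 0.26, adjusted p = 7.68e-11, edgeR). No male library reached a female one for either gene, nor for *Gsta1* (61.9 ± 22.4 against 391 ± 33.7 CPM) or *Gsta3* (35.0 ± 11.9 against 346 ± 14.0 CPM, SD, n = 3). *Gstm7*, of the mu class, was at 0, 3.59 and 0 CPM against 21.3, 22.9 and 22.9 CPM (−3.64 ± 0.47, and −1.44 with 9 UMIs in the libraries at 0). *Gstp1*, the pi-class transferase, was the only Gst member called higher in male cells, at 145, 173 and 200 CPM against 46.1, 34.7 and 44.3 CPM (2.13 ± 0.13). *Sult1b1*, which acts on thyroid hormones, was listed at 0 in male cells, and its call as lower was lost with 9 UMIs in those libraries (0.38).

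The summed S1 markers in these PT cells were 4241 to 4834 CPM in male and 6913 to 7233 CPM in female libraries, and the S3 markers 964 to 1104 and 546 to 608 CPM. S3-like barcodes numbered 1296 of 4887 in male PT cells and 250 of 9455 in female PT cells. Male and female cells were clustered apart, so these segments may not match. Each comparison was also made in S1-like and in S3-like barcodes alone, where fewer members were tested and S3 gave 7 lower calls. *Ugt8a*, *Ugt2b38*, *Ugt2b37*, *Gsta2* and *Gsta4* kept their call in both, with *Ugt2b38* at 3.10 in S1 and 9.18 in S3 and *Gsta2* at −3.31 and −6.04. *Sult1c2* (−1.40 in PT) was turned in S3-like barcodes (0.81), as was *Sult1d1* (0.43 in PT and −0.38 in S3).

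PT nuclei kept the directions of *Ugt8a*, *Ugt2b38*, *Ugt2b37*, *Gsta2* and *Gsta4* and turned those of some other members. Of 31 members tested, 12 were higher and 11 lower in male nuclei, where 64.5% of all genes were called (33.5% higher and 31% lower). Over all barcodes 6 were lower, in S1-like barcodes 4 and in S3-like ones 3, without the share of all genes called in these fits. *Ugt8a* had 420, 505 and 468 CPM in male and 3.98, 1.54 and 1.96 CPM in female nuclei (7.43 ± 0.29, adjusted p = 2.19e-07, edgeR). *Ugt2b38* had 338, 348 and 466 CPM against 41.2, 30.1 and 25.5 CPM (3.47 ± 0.20), and *Ugt2b5*, a close relative listed at 0 in male cells, had 26.7, 17.8 and 22.4 CPM against 0.905, 0.831 and 0.588 CPM (4.73 ± 0.25). *Gsta2* (−2.94 ± 0.19), *Gsta3* (−2.27 ± 0.24) and *Gsta4* (−1.99 ± 0.41) were lower in male nuclei, as they were in cells, and *Gsta1* was listed at 0 in male nuclei (−1.08 with 9 UMIs in each library, still called). In S3-like nuclei alone *Gsta3* was turned (0.92). *Gstm5*, of the mu class, was lower in male cells (219 ± 41.9 against 508 ± 13.8 CPM, −1.12 ± 0.14) and higher in male nuclei (24.4 ± 2.35 against 10.9 ± 1.43 CPM, 1.07 ± 0.14). *Gstm1* and *Gstm7* turned in the same way (−0.92 and 0.72, −3.64 and 0.73), *Gstm7* with 2 male cell libraries at 0, though *Gstm1* lost its call in nuclei without male replicate 3 (0.35) or female replicate 3 (0.55). *Ugt3a2* turned the other way, with 1.06 in cells and −0.41 ± 0.10 in nuclei, a call that was lost in S1-like barcodes (−0.07) and over all barcodes (−0.0024). The fold changes of cells and nuclei come from separate libraries of the same experiments.

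**Figure D3:**
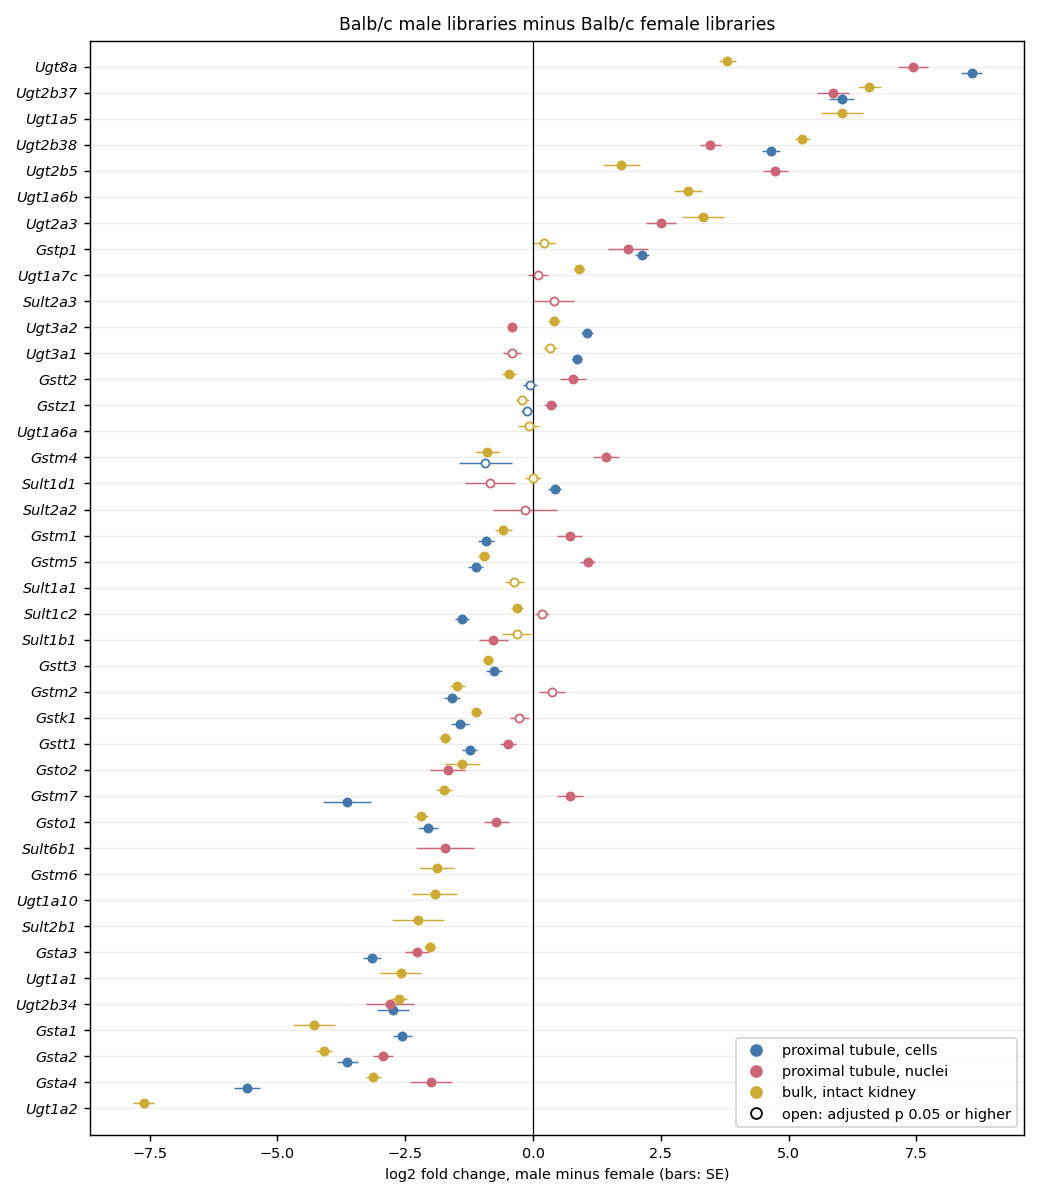
Log2 fold change, male minus female, of the members in PT cells, PT nuclei and bulk intact kidney (points) with the SE (bars). Open points did not pass the test, and members at 0 in all libraries of a group are left out. *Ugt8a*, *Ugt2b37* and *Ugt2b38* lie far to the male side and *Gsta2*, *Gsta3* and *Gsta4* to the female side in all 3, and *Gstm1* and *Gstm5* lie on different sides in cells and nuclei.

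Bulk RNA-seq of intact kidney, with counts of reads over whole genes, called 9 members higher and 22 lower in male mice out of 38 tested, against 52.1% of all genes (26.7% higher and 25.4% lower). None of 18 Gst members was called higher and 16 were called lower, while 9 of 15 Ugt members were higher and 4 lower. In such samples fewer cells of a type and less RNA per cell cannot be told apart. *Ugt2b38* had 1028, 1062 and 991 CPM against 29.9, 33.3 and 24.1 CPM (5.27 ± 0.15, adjusted p = 4.01e-09, edgeR). *Ugt2b37* (6.58 ± 0.23) and *Ugt8a* (3.80 ± 0.17) were also higher, and *Gsta2*, with 11.7, 14.5 and 16.3 CPM against 282, 232 and 259 CPM (−4.09 ± 0.15), *Gsta4* (−3.12 ± 0.14) and *Ugt2b34* (−2.62 ± 0.16) were lower in male kidney. The directions of these genes were the ones seen in cells and nuclei, but those of other members were not. *Gstp1*, higher in male cells, had 58.1, 117 and 52.2 CPM in male and 67.9, 65.0 and 71.9 CPM in female kidney. *Gstm1*, *Gstm5* and *Gstm7*, higher in male nuclei, had lower CPM in every male than in any female kidney. For *Gstm5* these were 47.0, 59.9 and 52.9 against 117, 106 and 113 CPM.

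*Ugt1a2* and *Ugt1a7c* had a higher CPM in bulk intact kidney of female mice than in female PT cells, and *Ugt1a6a* a lower one (6.06, 6.60 and 5.00 against 12.0, 11.6 and 11.5 CPM). *Ugt1a2* (chr1:88200601-88218997) had 594, 477 and 531 CPM in female and 1.92, 1.87 and 3.62 CPM in male intact kidney (−7.62 ± 0.21, adjusted p = 3.68e-09, edgeR), yet 17.6, 13.9 and 19.8 CPM in female PT cells. *Ugt1a7c* (chr1:88095062-88220002) had 281, 260 and 286 CPM in male and 168, 171 and 145 CPM in female intact kidney (0.90 ± 0.11), and at most 10.5 CPM in PT of any library of cells or nuclei. Of the 50-base words in the last 500 bases of these transcripts, 100% and 57.8% occur in other genes, and the part of this in the difference between assays was not tested. *Ugt1a5* rose from 0.0568 ± 0.0197 in female to 3.76 ± 0.612 CPM in male kidney (6.04 ± 0.40) and stayed low.

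Of the 45 other genes of the pathway (glutathione synthesis and breakdown, microsomal transferases, mercapturate steps, donors of glucuronic acid and sulfate, transporters, Nrf2), 15 were higher and 13 lower in male PT cells of 39 tested. In nuclei these were 16 and 10 of 41, and in bulk 14 and 13 of 42. The shares called over all genes were 40.6%, 64.5% and 52.1%. *Gusb*, the lysosomal enzyme that removes glucuronic acid, was higher in male mice in all 3 (2.93, 4.15 and 3.76 on the log2 scale). *Acy3*, which deacetylates mercapturates, was higher as well (3.11, 2.71 and 1.58), as was *Nat8*, which makes them (1.81, 3.67 and 1.88). *Mgst1*, a microsomal glutathione transferase, was lower in male cells (−2.04) and bulk (−1.81), and the sulfate transporter *Slc13a1* was lower in cells (−1.90), nuclei (−1.33) and bulk (−0.45).

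Nuclei were set against cells within each Balb/c experiment, with the same libraries that were compared by sex. Counting differs between them, since only exonic reads were counted in cells and intronic reads were added in nuclei. The fold changes rest on TMM scaling, which allowed for a different make-up of the nuclear RNA, so that they differ from ratios of CPM. In male PT, 5 of 27 members were higher and 18 lower in nuclei, against 80.1% of all genes called (51.9% higher and 28.2% lower). Without male nuclei replicate 1 or 2 the higher calls numbered 3, over all barcodes 8, and in S3-like barcodes 2 were higher and 10 lower. In female PT 2 of 30 members were higher and 25 lower, against 85.3% of all genes (44.7% higher and 40.6% lower), with 1 higher in S1-like or S3-like barcodes alone. The median log2 fold change of the members was −2.32 in male and −3.04 in female mice, where that of all genes was 0.77 and 0.15. Across members the fold change rose with gene length, with Spearman correlations of 0.28 in male (27 members) and 0.49 in female mice (30 members). The part of length in the difference was not tested. Over genes above 0 in every library compared, 2 of 19 members were higher and 15 lower in male nuclei (median −2.43) and 2 of 27 higher and 23 lower in female nuclei (median −2.99), where 77.6% and 86.2% of all genes were called and the medians of all genes were 0.14 and 0.11. Of the Gst members, 12 of 16 were lower in male and 16 of 18 in female nuclei. In a test of the difference between the sexes, added after seeing the data, the nuclei minus cells difference was more positive in male mice for 18 of 29 members and more negative for 3, where 48.4% of all genes were called (42.9% more positive and 5.47% more negative). Over genes above 0 in all 12 libraries these were 12 and 3 of 19 members, where 44.6% of all genes were called (29.7% and 15%).

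*Gstp1* had 3.23, 2.66 and 3.36 CPM in male nuclei and 145, 173 and 200 CPM in male cells (−6.25 ± 0.19, adjusted p = 1.89e-10, edgeR). In female mice it had 0.422, 1.2 and 0.719 CPM in nuclei and 46.1, 34.7 and 44.3 CPM in cells (−6.44 ± 0.22). It was thus nearly absent from nuclei in both experiments. *Gstm5* had 9.29, 11.7 and 11.8 CPM in female nuclei and 493, 520 and 511 CPM in female cells (−6.30 ± 0.13), and fell by 3.65 ± 0.18 in male nuclei. *Gstt3* was listed at 0 in male nuclei (16.4-fold below male cells if each library held 9 UMIs) and had 0, 0.475 and 0.392 CPM in female nuclei against 52.0, 47.5 and 51.5 CPM in cells (−8.16 ± 0.28, and −7.46 with 9 UMIs in the library at 0). Exons of *Gstt3* overlap *Gm20441* on the same strand, and the part of this in the difference was not tested. *Gsta1* was listed at 0 in male nuclei too (36.9-fold lower if each library held 9 UMIs) and fell by 7.60 ± 0.18 in female nuclei. *Gsta4* fell from 312 ± 66.2 to 5.72 ± 2.58 CPM in female nuclei (−6.53 ± 0.27). *Sult1d1* fell from 1037, 1093 and 1220 CPM in male cells to 91.8, 97.9 and 132 CPM in male nuclei (−3.85 ± 0.17).

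**Figure D4:**
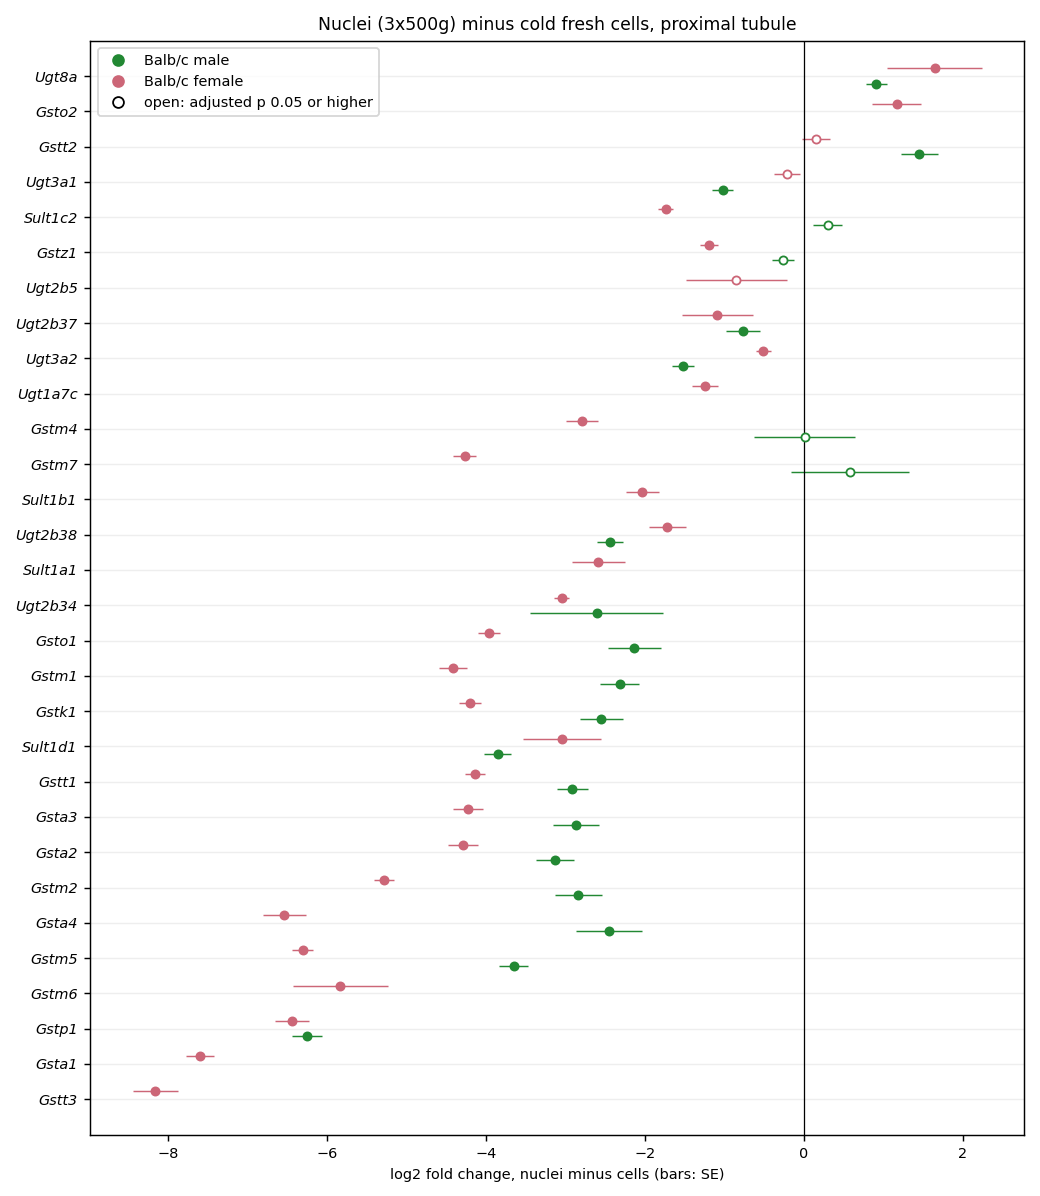
Log2 fold change, nuclei minus cells, of the members in male and in female PT (points) with the SE (bars). Open points did not pass the test, and members at 0 in all libraries of a group are left out. Most members lie below 0 in both, with *Gstp1* at −6.25 and −6.44, and *Ugt8a* lies above 0 in both (0.91 and 1.64).

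Few members were higher in nuclei. *Gstt2* had 1607, 835 and 1069 CPM in male nuclei and 336, 315 and 277 CPM in male cells (1.45 ± 0.23, adjusted p = 8.66e-05, edgeR), but in female mice its difference was 0.15 ± 0.18 and not called. *Ugt8a* had 420, 505 and 468 CPM against 173, 169 and 195 CPM in male (0.91 ± 0.13) and was also higher in female nuclei (1.64 ± 0.60), though at 2.50 ± 1.30 against 0.510 ± 0.269 CPM, and without female nuclei replicate 1 (1.18) or female cells replicate 1 (1.62) or 2 (1.26) the latter was no longer called. *Ugt2b5*, *Ugt1a7c* and *Ugt2a3* were listed at 0 in male cells and called higher in male nuclei, but with 9 UMIs in each of those libraries *Ugt1a7c* (−0.997) and *Ugt2a3* (−1.28) were not, and *Ugt2b5* was higher by 0.81. *Gsto2*, an omega-class transferase, rose from 1.12 ± 0.142 to 4.34 ± 0.996 CPM in female nuclei (1.17 ± 0.31). *Ugt3a2* had a higher CPM in female nuclei (347 ± 16.3) than in female cells (291 ± 12.3), but a fitted log2 fold change of −0.51 ± 0.09, and in sums over all barcodes the call was lost (−0.15).

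The S3 markers summed to 5831 to 7824 CPM in male PT nuclei and 964 to 1104 CPM in male PT cells, and to 2802 to 4072 against 546 to 608 CPM in female mice. Transcripts of erythrocytes, a check of free RNA, were at 63.7 to 84.2 CPM in male nuclei against 2678 to 4826 CPM in cells, and at 2.42 to 34.7 against 1567 to 2169 CPM in female mice. The part of these in the results was not tested. In S3-like barcodes alone the calls of *Gsta2* (−0.15) and *Ugt8a* (0.30) in male mice were lost, and those of *Gstp1* (−5.05), *Gstm5* (−2.56), *Sult1d1* (−3.95) and *Gstt2* (1.99) were kept. Of the other pathway genes, 11 of 41 were higher and 21 lower in male and 11 of 40 higher and 24 lower in female nuclei, where 80.1% and 85.3% of all genes were called. The efflux pump *Abcc2* was higher in both (3.13 and 1.80), and the microsomal transferase *Mgst3* was lower in both (−3.58 and −4.97). *Dpep1*, a dipeptidase of glutathione breakdown, was listed at 0 in male nuclei (81.5-fold lower in PT if each library held 9 UMIs).

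Strain was compared in PT of male cold fresh cells with the same chemistry, again with the Balb/c male libraries. Strain, the AFAPIL.1DEL line of the C57BL/6J mice, age and batch cannot be told apart in it. Of 23 members tested, 6 were higher and 9 lower in Balb/c than in C57BL/6J, against 10.7% of all genes called (4.47% higher and 6.26% lower). Of 15 Gst members 2 were higher and 9 lower, and of 6 Ugt members 3 were higher and none lower. *Gsta2* had 189, 150 and 87.0 CPM in Balb/c and 834, 858 and 1029 CPM in C57BL/6J libraries (−2.77 ± 0.21, adjusted p = 5.92e-07, edgeR). *Gsta3* (−2.02 ± 0.22), *Gsta4* (−2.53 ± 0.34) and the omega-class *Gsto1* (−1.75 ± 0.25) were lower too, as was *Gstp1*, at 145, 173 and 200 against 406, 224 and 235 CPM (−0.85 ± 0.21), whose call was lost without Balb/c replicate 1 (−0.76). *Gsta1* went against the other alpha genes, with 82.8, 64.7 and 38.2 CPM against 9.35, 4.08 and 5.10 CPM (3.26 ± 0.32, adjusted p = 6.57e-06, edgeR), a gene whose words are mostly shared with its neighbors.

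*Gstm2* was higher in Balb/c PT, at 28.0, 43.8 and 33.0 CPM against 5.84, 1.88 and 1.59 CPM (3.47 ± 0.38, adjusted p = 2.05e-05, edgeR). Principal cells, where *Gstm2* is highest, left markers at 75.5 to 92 CPM in Balb/c PT sums and 57.7 to 99.3 CPM in C57BL/6J PT sums. S3 markers in PT were at 964 to 1104 CPM in Balb/c and 591 to 817 CPM in C57BL/6J libraries, S1 markers at 4241 to 4834 and 4356 to 5672 CPM, and erythrocyte transcripts at 2678 to 4826 and 5697 to 17391 CPM. The part of these in the results was not tested. *Ugt8a* had 173, 169 and 195 CPM against 48.3, 52.7 and 46.2 CPM (1.75 ± 0.14), *Ugt2b37* 125 ± 29.3 against 34.1 ± 14.3 CPM (1.78 ± 0.27) and *Sult1c2* 130 ± 22.4 against 61.4 ± 13 CPM (0.99 ± 0.19, SD of CPM and SE of the fold, n = 3). No Balb/c library overlapped a C57BL/6J library for these genes. *Ugt2b38* was also called (0.62 ± 0.12), but in S1-like barcodes alone the difference was 0.07. Of 39 other pathway genes 6 were higher and 5 lower, where 10.7% of all genes were called, among them *Gusb* (2.68) and the nucleotide sugar transporter *Slc35d2* (1.43) on one side and *Abcc2* (−1.72) and *Slc13a1* (−1.07) on the other.

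Nuclei protocols were compared in female mice, each against the same 3x500g libraries. With 1x2000g, 3 of 34 members were higher and none lower, where 23.8% of all genes were called (14.8% higher and 8.99% lower). Over all barcodes 5 were higher, and without 3x500g replicate 3 or any 1x2000g library only 1. *Gstm5* rose from 9.29, 11.7 and 11.8 to 22.5, 21.1 and 23.0 CPM (1.02 ± 0.11, adjusted p = 0.00127, edgeR), and *Sult2b1* (1.22 ± 0.32) and *Sult6b1* (0.74 ± 0.18) were below 4 CPM in every library and lost their calls with DESeq2 and without any one of several libraries. With sucrose, 9 of 33 members were higher and 4 lower, against 35.9% of all genes (18.7% higher and 17.2% lower). Among these, 7 of 16 Gst members were higher and none lower. *Gstm5* had 24.8, 21.2 and 22.8 CPM after sucrose (1.05 ± 0.11), *Gstm1* 46.3, 65.8 and 59.7 against 34.2, 37.4 and 22.6 CPM (0.85 ± 0.18), and *Gstt2* 1035, 976 and 1189 against 446.5, 756 and 729 CPM (0.71 ± 0.18). *Ugt1a10* (1.50 ± 0.27), *Gstm7* (0.86 ± 0.20) and *Gstm2* (0.73 ± 0.15) were higher and *Ugt3a2*, at 265 ± 20.6 against 347 ± 16.3 CPM (−0.41 ± 0.09), *Ugt1a7c* (−0.58 ± 0.14), *Sult1c2* (−0.32 ± 0.10) and *Sult2a3* (−1.58 ± 0.40) lower after sucrose. Without sucrose replicate 2 the calls of *Ugt1a7c* (−0.53), *Sult1c2* (−0.29) and *Sult2a3* (−1.35) were lost. In S1-like and S3-like barcodes 5 and 3 members were higher and 1 lower in each, and *Sult1c2* was turned in S3 (0.38). All 5 *Gstm* members tested were thus called higher with sucrose and 1 of 5 with 1x2000g, and *Mgst1* rose with both protocols (1.73 with 1x2000g and 1.84 with sucrose). Of 41 other pathway genes 4 were higher and 2 lower with 1x2000g, and 9 higher and 6 lower with sucrose.

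*Sult1d1* was uneven among female nuclei, at 350, 81.0 and 100.1 CPM in the 3x500g libraries and 333, 74.5 and 105 CPM in the 1x2000g libraries, and at 75.5, 126 and 72.9 CPM after sucrose. A single library of each sorted protocol thus stood above the others. S3 markers in PT were at 2802 to 4072 CPM with 3x500g, 2168 to 3198 with 1x2000g and 1972 to 2473 with sucrose, and principal cell markers at 85.4 to 93.6, 92.7 to 119.5 and 125 to 168 CPM. Their part in the results was not tested.

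Warm dissociation, methanol and cryopreservation were each compared with the C57BL/6J cold fresh libraries, which also served for strain. Of 27 members tested in PT cells after warm dissociation, 3 were higher and none lower than after cold dissociation, against 6.46% of all genes called (2.73% higher and 3.73% lower). DESeq2 called 9 higher, the exact test of edgeR 7, and sums over all barcodes 12, without the share of all genes called in these fits. *Ugt2b37* had 74.4, 62.0 and 63.1 CPM after warm and 34.3, 48.4 and 19.8 CPM after cold dissociation (1.02 ± 0.24, adjusted p = 0.03, edgeR). *Sult1c2* rose by 0.82 ± 0.21, with overlapping libraries, and *Gstt2* rose from 439, 435 and 382 to 558, 580.5 and 476 CPM (0.42 ± 0.11). These calls were unstable: with warm replicate 1 or 3 or cold replicate 3 left out no member was called, without cold replicate 2 only 1 was, and without cold replicate 1 there were 12. The S1 markers were at 3497 to 4517 CPM after warm and 4356 to 5672 CPM after cold dissociation, the S3 markers at 796 to 1050 and 591 to 817 CPM, and erythrocyte transcripts at 2457 to 3826 and 5697 to 17391 CPM, and their part was not tested. In S1-like or S3-like barcodes alone *Ugt2b37* (0.46 and 0.67) and *Gstt2* (0.46 and 0.44) were not called. In the bulk suspensions of the same strain, 1 of 33 members was higher and 1 lower after warm dissociation, against 8.68% of all genes (5.42% higher and 3.26% lower). With no filter on low counts 2 were higher and 2 lower. Without warm replicate 3 the higher calls numbered 2, and without warm replicate 1 or 2 the lower ones 2. *Gstm2* rose from 15.1, 19.5 and 12.6 to 28.4, 23.4 and 30.3 CPM (0.79 ± 0.15), while in 10x sums over all barcodes it had 27.7, 30.6 and 33.6 CPM after warm and 56.1, 50.7 and 37.9 CPM after cold dissociation (−0.50, not called), and *Ugt2b34* fell from 60.5, 66.1 and 75.0 to 37.3, 29.6 and 45.1 CPM (−0.86 ± 0.14, adjusted p = 0.00198, edgeR). Of the other pathway genes 1 was higher and 2 lower of 39 in PT cells, and 3 were higher and 3 lower of 41 in bulk.

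Methanol fixation raised more members than it lowered. Of 26 members in C57BL/6J cold-dissociated PT, 11 were higher and 3 lower than in fresh cells, against 22.1% of all genes called (10.7% higher and 11.4% lower). The higher ones were 10 of 17 Gst members and *Sult1c2*, and the lower ones 3 of 6 Ugt members. With the suspension that fresh and fixed aliquots shared as a block, 15 were higher, *Gsto1*, *Gstt1*, *Ugt2b37* and *Ugt2b38* added, and 3 lower, against 35.7% of all genes (17.4% higher and 18.3% lower). *Gsta2* had 1204, 1244 and 1440 CPM after methanol and 834, 858 and 1029 CPM in fresh cells (0.58 ± 0.11), and *Gstt2* 642, 687 and 561.5 against 439, 435 and 382 CPM (0.65 ± 0.10, adjusted p = 0.00123, edgeR). *Ugt8a* fell from 48.3, 52.7 and 46.2 to 23.3, 25.4 and 24.2 CPM (−0.94 ± 0.15, adjusted p = 0.00107, edgeR), and *Ugt3a1* (−0.39 ± 0.11) and *Ugt3a2* (−0.32 ± 0.10) were lower by less. Over all barcodes 1 member was called lower and *Ugt3a2* was turned (0.029), and without fresh replicate 2 or methanol replicate 2 the lower calls also numbered 1. *Gstm2* had 13.1, 21.6 and 13.9 CPM against 5.84, 1.88 and 1.59 CPM (2.53 ± 0.40), beside principal cell markers at 132 to 280 CPM against 57.7 to 99.3 CPM and erythrocyte transcripts at 13968 to 33058 against 5697 to 17391 CPM. Of the PT barcodes, 2286 were S1-like and 795 S3-like of 8411 after methanol, against 2442 and 983 of 7530 in fresh cells. The part of these was not tested. In sums over all barcodes the difference of *Gstm2* was 0.49 and not called. *Gsta4* (1.05 ± 0.25) and *Gstp1* (0.73 ± 0.19) were called as well. Without fresh replicate 2, methanol replicate 2, methanol replicate 1 or fresh replicate 3 the higher calls numbered 3, 4, 5 and 6, in S3-like barcodes 7, and those of *Gsta4* (0.92) and *Gstp1* (0.58) were lost without fresh replicate 2. These fits left the shared suspension out of the model. With it as a block and all libraries kept, *Gsta4* was at 1.04 ± 0.13 (adjusted p = 2.82e-06, edgeR) and *Gstp1* at 0.78 ± 0.13 (adjusted p = 6.58e-05, edgeR). Of 39 other pathway genes 2 were higher, *Mgst1* (0.93) and *Mgst3* (0.69), and 6 lower, with *Impad1* (−0.72), *Ggt1* (−0.70) and *Gclc* (−0.61) among them, and with the block 5 were higher and 10 lower.

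Cryopreserved suspensions kept few PT cells, 0.387% of barcodes in C57BL/6J cold-dissociated libraries against 64.4% in the fresh ones, and were therefore compared as sums over whole libraries. In such sums the number of cells of a type and the level per cell cannot be told apart, for higher and for lower calls. Of 25 members, 2 were higher and 18 lower, against 50.7% of all genes called (21.8% higher and 28.9% lower), and all 6 Ugt members tested were lower. All of these 6 were listed at 0 in each cryopreserved library. Among genes above 0 in all 6 libraries, 3 of 14 members were higher and 9 lower, where 58.6% of all genes were called. With the shared suspension as a block 15 members were lower, the calls of *Gsta1*, *Gstm7* and *Gstp1* being lost, against 44% of all genes. With library zeros set to 9 UMIs 6 members were called higher. *Ugt2b38* had 664, 543 and 515 CPM in fresh libraries and was listed at 0 in the cryopreserved ones, 114-fold lower if each of these held 9 UMIs, and *Ugt3a2* had 285, 281 and 303 CPM and 0, 58.7-fold lower on the same terms. *Ugt2b34* would be 3.11-fold lower. *Gstm2* rose from 56.1, 50.7 and 37.9 to 110.0, 118 and 87.5 CPM (0.96 ± 0.17, adjusted p = 0.00227, edgeR), as did *Sult1a1*, from 10.2, 7.92 and 8.49 to 20.8, 16.3 and 17.6 CPM (0.86 ± 0.20). In fresh C57BL/6J cells *Gstm2* was highest in principal and *Sult1a1* in endothelial barcodes, the latter overlapping distal convoluted tubule. *Sult1d1* fell from 711 ± 42.1 to 32.1 ± 4.34 CPM (−4.64 ± 0.15) and *Gsta2* from 585 ± 71.7 to 8.50 ± 9.99 CPM (−6.30 ± 0.59), with 1 cryopreserved library at 0. Of 41 other pathway genes 3 were higher, *Hpgds* (1.32), *Gusb* (0.71) and *Nfe2l2*, which encodes Nrf2 (0.63), and 30 lower, of which *Slc13a1*, *Nat8* and *Dpep1* were listed at 0 after cryopreservation and would be 40.1-fold, 24.1-fold and 20.5-fold lower with 9 UMIs in each library.

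**Figure D5:**
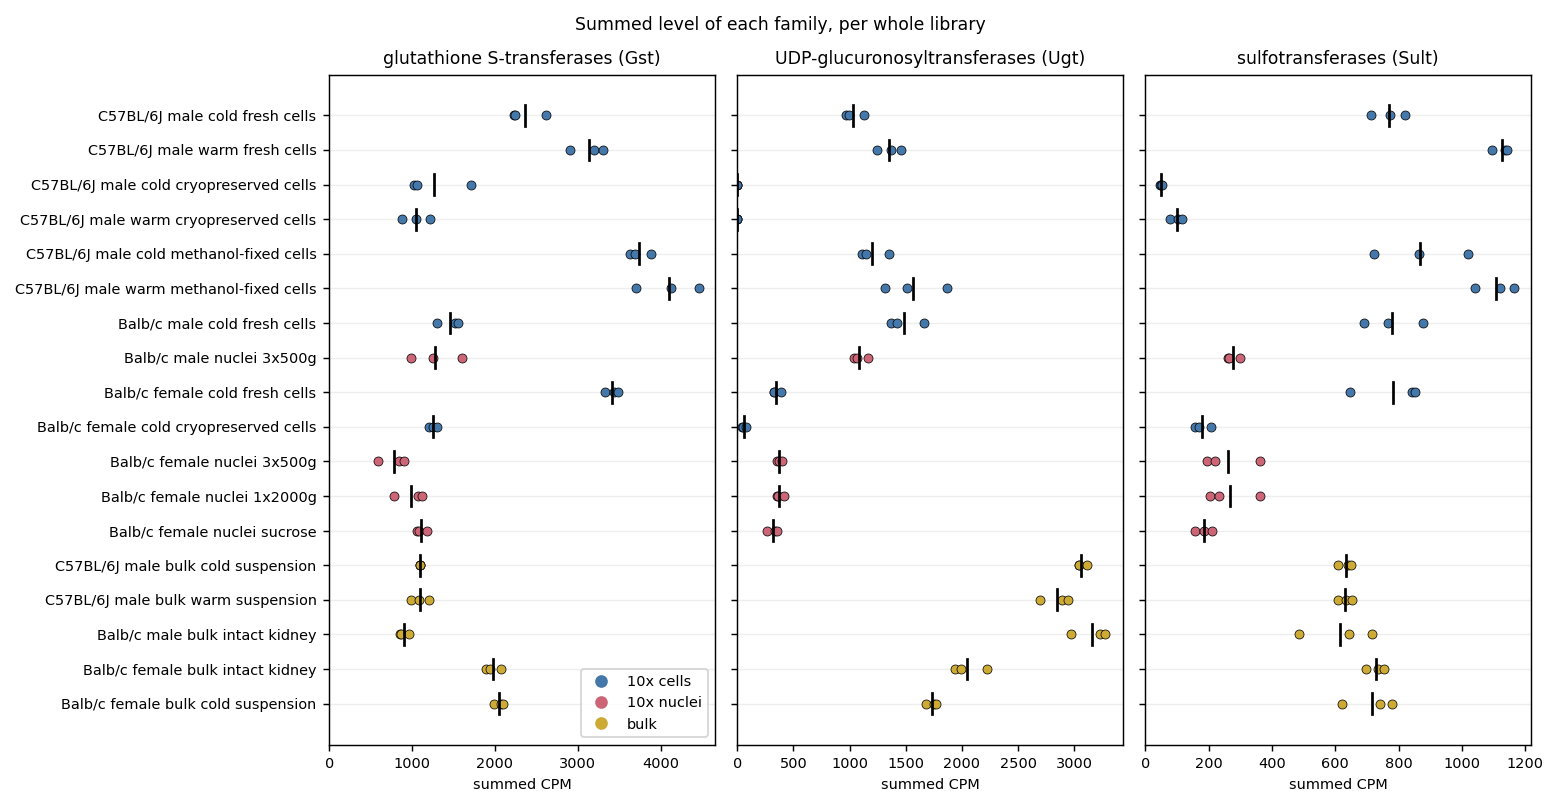
Summed CPM of the Gst, Ugt and Sult members (3 panels) in the 18 conditions, with 1 point per library. Points of 10x libraries are sums over all barcodes and those of bulk libraries are read counts. The Ugt members that C57BL/6J cryopreserved libraries list are all at 0, where genes seen in fewer than 10 cells were dropped, and Gst sums are higher than Ugt sums in fresh C57BL/6J cells (2362 against 1032 CPM) and lower in bulk C57BL/6J cold suspensions (1094 against 3064 CPM). The sums were not divided by gene length, and these cells list 32 members against 53 in the bulk suspensions, so the 2 assays are not like for like.

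Intact kidney and cold suspension were compared in bulk RNA-seq of female mice. Of 39 members tested, 3 were higher and 7 lower in intact kidney, against 20% of all genes called (12.1% higher and 7.91% lower). Without intact replicate 3 the lower calls numbered 4, and with no filter on low counts the higher ones 5. *Ugt3a1* had 154, 133 and 129 CPM in intact kidney and 70.7, 69.0 and 70.1 CPM in suspension (1.03 ± 0.08, adjusted p = 2.22e-05, edgeR), *Gstm1* 364, 348 and 346 against 212.5, 222 and 220 CPM (0.74 ± 0.05) and *Ugt3a2* 1085, 940 and 982 against 720, 693 and 716 CPM (0.55 ± 0.07). *Ugt2b34* was lower in intact kidney (−0.34 ± 0.07), as were *Gstt1* (−0.29 ± 0.05), *Gstm2* (−0.29 ± 0.05) and *Ugt1a6a* (−0.69 ± 0.13), and *Ugt2b38* (−0.52 ± 0.14) was not called without intact replicate 1 (−0.56), intact replicate 3 (−0.40) or suspension replicate 2 (−0.37). Of 43 other pathway genes 20 were higher and 4 lower, with *Acy1* (1.83), *Ggct* (1.00) and *Acy3* (0.97) among the former and *Hpgds* (−1.22) and *Dpep1* (−0.54) among the latter.

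Levels of different members were compared in bulk as TPM, that is, reads per kilobase of exon scaled to the same total in each library, without mitochondrial genes. *Ugt2b38* was highest in male kidney, at 2150 ± 68.1 in C57BL/6J cold suspension, 1937 ± 264 in warm suspension and 2164 ± 73.1 in Balb/c intact kidney, followed by *Ugt3a2* at 1619 ± 56.9, 1513 ± 65.6 and 1569 ± 267 (SD, n = 3). In female intact kidney *Ugt3a2* (1217 ± 87.5) came first, followed by *Ugt1a2* (909 ± 95.4), *Gstm1* (901 ± 27.7) and *Gsta2* (824 ± 75.8), whose libraries overlapped. In female suspension *Gsta2* (1011 ± 114) came first, followed by *Ugt3a2* (845 ± 15.6) and *Ugt1a2* (827 ± 68.8), which overlapped. *Ugt1a2* shares 59.3% of its exon bases with other genes. Of the 50-base words of *Gsta2*, *Ugt2b38* and *Gstm1*, 49.8%, 37.4% and 18.9% occur in other genes. The levels of these members, and so their places in the order, are uncertain.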

How the data were processed

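The authors deposited UMI counts per gene and barcode for each 10x library and read counts per gene for each bulk library. Per the study's methods, cells were counted from exonic reads and nuclei from exonic and intronic reads. The submitters' processing notes name Cell Ranger 2.1.1, STAR 2.6.1a, featureCounts, Trim Galore, Picard and the GRCm38 build. Genes seen in fewer than 10 cells were dropped per library before deposit and are mostly listed at 0. Among genes above 0, 0 to 12.1% per library were seen in 1 to 9 of the deposited cells. Depth, given in the report, limits precision.

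All deposited barcodes were kept, doublets included. Barcodes were clustered in 5 sets (2000 variable genes, 30 components, 20 neighbors, resolution 2) without members, pathway genes, stress, mitochondrial, ribosomal and hemoglobin genes. Clusters were named by fixed marker lists, and the constant added before taking the fold of a marker was chosen after seeing the data. Counts were summed per library over PT barcodes, or over all barcodes where cryopreserved libraries were compared. Sums and bulk counts were tested in edgeR 4.0.16 (R 4.3.3) with TMM factors, filterByExpr and the quasi-likelihood test, on the 6 libraries of 2 groups and the genes listed in all of them. CPM left out mitochondrial genes. DESeq2 1.42.0, other scalings, filters and subsets of barcodes were alternatives, and the scripts were tested on simulated data. The interaction of nuclei and sex, a fit of genes above 0 in every library, and a fit with library zeros set to 9 UMIs under the same scaling were added after seeing the data, as was a block. Cell names of C57BL/6J libraries carry a suspension code that fresh, methanol-fixed and cryopreserved aliquots share. Over genes, deviations from the group means in libraries of the same code had correlations of 0.13 to 0.34 for methanol and of only 0.033 to 0.082 for cryopreservation.

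Members, gene lists and tests were chosen with earlier results of these data known. Named members were the 12 with the highest mean log2 level, up to 5 called in each direction whose sign was kept with each library left out, and the highest in each class, and for the pathway list up to 3 genes in each direction. Other members and pathway genes named for a contrast were chosen after their values were seen.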

Additional observations from a re-analysis of the deposited data

Results flagged for a closer look

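The difference between nuclei and cells was itself compared between male and female Balb/c PT, with an interaction term in edgeR over 12 libraries (quasi-likelihood test, Benjamini-Hochberg adjustment). This test was added after seeing the data. Of 29 members tested, 18 were more positive and 3 more negative in male mice, where 48.4% of all genes were called (42.9% more positive and 5.47% more negative). The median of all genes was 0.83 on the log2 scale and that of the members 1.42. Many genes were listed at 0 in male cells, where those seen in fewer than 10 cells of a library had been dropped. Over genes above 0 in all 12 libraries the median of all genes was 0.23 and that of the members 0.93, with 12 of 19 members more positive and 3 more negative. Sex, age, use as breeders, chemistry and batch cannot be told apart in it.

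Members whose nuclei minus cells difference was more negative in male mice were *Ugt3a2* (−0.93), *Ugt3a1* (−0.73) and *Gsta1* (−4.48), the latter listed at 0 in male nuclei. *Gstz1* (1.01), *Gsta2* (1.23), *Gstt1* (1.29), *Gstt2* (1.38), *Gsta3* (1.42) and *Sult1c2* (2.11) were more positive. The mu class members *Gstm1* (2.17), *Gstm2* (2.51), *Gstm5* (2.73) and *Gstm7* (4.91) and the alpha class member *Gsta4* (4.14) stood further from the median of all genes, *Gstm7* with 2 male cell libraries at 0. Over genes above 0 in all libraries *Gsta4* (3.78), *Gstm5* (2.37), *Gstm2* (2.15) and *Gstm1* (1.81) were still more positive, and *Ugt2b38* (−1.01), *Ugt3a1* (−1.09) and *Ugt3a2* (−1.29) more negative. *Sult1b1* (8.69), *Ugt1a7c* (9.65) and *Ugt2b5* (11.06) were listed at 0 in male cells, so their fitted values depend on the prior count and on the dropped cells and are not read as a difference. Groups of 3 libraries allow no test of single libraries that stand apart.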

How the results depend on the processing

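With the suspension number as a replicate block, methanol gave 15 higher and 3 lower calls and cryopreservation 2 and 15. Warm and cold libraries of the same number had correlations of 0.15, 0.019 and −0.055. The first lay above the highest with another number (0.091) and the last 2 below it (0.215). The block gave 4 higher calls there in place of 3. The block changed no other call of a member in these comparisons. The labels number no replicates, and the other libraries carry no such code, so that no paired fit was made for them. Alternatives were no filter, a log2 fold change of at least 1, DESeq2, edgeR's exact test, RLE factors, clustering resolution 1, doublets left out, all barcodes, S1-like or S3-like barcodes, and each library left out. After seeing the data, the block and 2 more were added, genes above 0 in every library compared and library zeros set to 9 UMIs. Counts of calls under alternatives, here and above, are mostly given without the share of all genes called in the same fit. They show how calls of members moved and not how members stand against other genes.

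With a log2 fold change of at least 1, strain gave 4 lower calls, sucrose 2 higher and 1 lower, male against female nuclei 7 lower, warm dissociation 1 higher, methanol 2 higher and 0 lower, cryopreservation 0 higher, bulk intact kidney 1 higher and 0 lower, and bulk warm suspension 0 higher and 0 lower. Over all barcodes, male nuclei gave 8 higher calls, 1x2000g 5 higher, male against female nuclei 6 lower, warm dissociation 12 higher and methanol 1 lower. In S1-like barcodes female nuclei gave 1 higher call, sucrose 5 higher and 1 lower, and male against female nuclei 4 lower. In S3-like barcodes male nuclei gave 2 higher and 10 lower calls, female nuclei 1 higher, 1x2000g 1 higher, sucrose 3 higher and 1 lower, male against female cells 7 lower, male against female nuclei 3 lower and methanol 7 higher. Segments hold fewer barcodes, and fewer members were tested in them. Over genes above 0 in every library male nuclei gave 2 higher calls and cryopreservation 9 lower ones, since fewer members were tested. With zeros set to 9 UMIs male nuclei gave 3 higher calls, and cryopreservation 6, of which *Gstm6*, *Ugt1a7c* and *Ugt2b5* are higher only because 9 UMIs weigh more in shallower libraries. Warm dissociation gave 9 higher calls with DESeq2 and 7 with the exact test. Without a filter bulk intact kidney gave 5 higher calls, and bulk warm suspension 2 higher and 2 lower.

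With each library left out in turn, the higher and lower calls ranged over 6 to 6 and 8 to 12 for strain, 3 to 6 and 16 to 19 for male nuclei, 2 to 3 and 24 to 26 for female nuclei, 1 to 3 and 0 to 0 for 1x2000g, 6 to 8 and 1 to 4 for sucrose, 6 to 7 and 14 to 17 for sex in cells, 9 to 12 and 8 to 10 for sex in nuclei, 0 to 12 and 0 to 0 for warm dissociation, 3 to 13 and 1 to 3 for methanol, 2 to 2 and 16 to 22 for cryopreservation, 3 to 4 and 4 to 9 for bulk intact kidney, 1 to 2 and 1 to 2 for bulk warm suspension, and 8 to 10 and 20 to 22 for sex in bulk. The libraries behind these were male nuclei replicate 1 or 2 (3 higher), 3x500g replicate 3 or any 1x2000g library (1 higher), sucrose replicate 2 (1 lower), bulk intact replicate 3 (4 lower), and bulk warm replicate 3 (2 higher) or replicate 1 or 2 (2 lower). None of the fits with a library left out held the suspension block.

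Direction was reversed over all barcodes for *Gstz1* in male nuclei (0.45) and *Ugt3a2* after methanol (0.029), and in S3-like barcodes for *Sult1c2* after sucrose (0.38), *Sult1d1* (−0.38) and *Sult1c2* (0.81) by sex in cells, and *Gsta3* (0.92) and *Gstt1* (1.49) by sex in nuclei. The cause was not tested. With zeros set to 9 UMIs *Ugt1a7c* (−0.997) and *Ugt2a3* (−1.28) in male nuclei and *Ugt1a7c* (0.30) and *Sult1b1* (0.38) by sex in cells were reversed, and *Gsta1* (−0.18) and *Gstm7* (−0.11) after cryopreservation and *Sult6b1* (−0.73) by sex in nuclei lost their calls. RLE in place of TMM moved the median of all genes by less than 0.1.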

Other observations

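Cryopreserved cells of female Balb/c mice, which entered no comparison, kept PT barcodes (8.79% of barcodes on average). In these, Gst, Ugt and Sult members summed to 3473 ± 337, 326 ± 70.2 and 836 ± 61.0 CPM (SD, n = 3). In fresh PT cells of female Balb/c mice the sums were 5125 ± 295, 585 ± 22.5 and 1246 ± 136 CPM.

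Warm-dissociated, methanol-fixed C57BL/6J cells had family sums of 4645 ± 499 (Gst), 1903 ± 299 (Ugt) and 1315 ± 52.6 CPM (Sult) in PT, against 3706 ± 210, 1772 ± 156 and 1418 ± 56.2 CPM in fresh warm-dissociated PT cells.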
